A study of Homo sapiens with 4 samples.

Results

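The 50 genes described here are a fixed list of cell cycle and proliferation genes, chosen by gene symbol from the 53826 entities that every library lists, and all 50 were found. By their known roles, 14 act in DNA replication during S phase, 31 act in G2 phase and mitosis, and 5 regulate G1 phase and the entry into S phase. The RNA came from PK-1, an established line of human pancreatic cancer cells of the well-differentiated ductal type, in 4 conditions with 1 library each. In the stable model the cells carried a retroviral pMXs vector with SPRR1A and a FLAG tag, or, for the control, with DsRed, a red fluorescent protein. In the transient model the cells were transfected with a pCAG plasmid carrying SPRR1A and a FLAG tag, or GFP as the control, and RNA was isolated 48 h later. SPRR1A is a small proline-rich protein of the cornified envelope of squamous epithelium, and the comparison asked which genes change when it is overexpressed in pancreatic cancer cells. With 1 library per condition, the spread between replicates is unknown and no test was made. The methods mention neither cloning nor sorting of the infected or transfected cells.

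The cell cycle is read from such lists because its genes are switched on in waves. In late G1 phase, cyclin D and cyclin E kinases release the E2F transcription factors from the retinoblastoma protein, and E2F then switches on the genes that license origins, unwind DNA and supply nucleotides. In G2 phase, the MuvB complex with B-MYB and FOXM1 switches on the genes of chromosome condensation, the spindle and cell division. In RNA from a whole culture, fewer cells in a phase and less mRNA per cell in that phase cannot be told apart.

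The log2 TPM of SPRR1A itself was 10.93 against 0.75 in the stable pair and 16.60 against 3.56 in the transient pair, higher in each case in the library labelled SPRR1A. TPM corrects the reads of a gene for its length and gives its share per 1000000 transcripts, so it can be compared between genes, and 0 in the files means at most 1 TPM. The depth in reads is unknown. As a check of the cell type, the summed TPM of 8 epithelial markers was 18712 to 26925 per library, with MUC1 at 0.90 log2 TPM or less throughout. Of 13 fibroblast, leukocyte and endothelial markers, 10 were listed at 0 in all 4 libraries, among them PTPRC, PECAM1 and PDGFRB, and the 13 summed to between 24 and 42 TPM.

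All 50 genes were well expressed. They lay above the floor in each library, their lowest value was 3.36 log2 TPM (CENPE in transient SPRR1A cells) and their highest was 9.37 (PCNA in stable SPRR1A cells). Each of them passed the filter used below, a mean TPM of at least 5 over the 4 libraries, which 10241 entities passed in all. PCNA, the sliding clamp that holds DNA polymerase on its template, was the highest replication gene in each library. CDC20, the activator of the anaphase-promoting complex, was the highest mitotic gene, with a log2 TPM of 8.73 and 8.78 in stable SPRR1A and DsRed cells and of 8.42 and 8.58 in transient SPRR1A and GFP cells. CENPE, a kinesin of the kinetochore, was the lowest gene of the list in each library. The 14 replication genes summed to a TPM of 2723 and 2730 in stable SPRR1A and DsRed cells and of 2053 and 2328 in transient SPRR1A and GFP cells, and the 31 mitotic genes to a TPM of 3730 and 3492 in stable SPRR1A and DsRed cells and of 3011 and 3444 in transient SPRR1A and GFP cells. Both sums were lowest in transient SPRR1A cells. In that library SPRR1A took 9.9% of all TPM, which by itself shifts each other gene by -0.15 on the log2 scale. The summed TPM of the epithelial markers was also lowest there, at 18712.

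**Figure D1:**
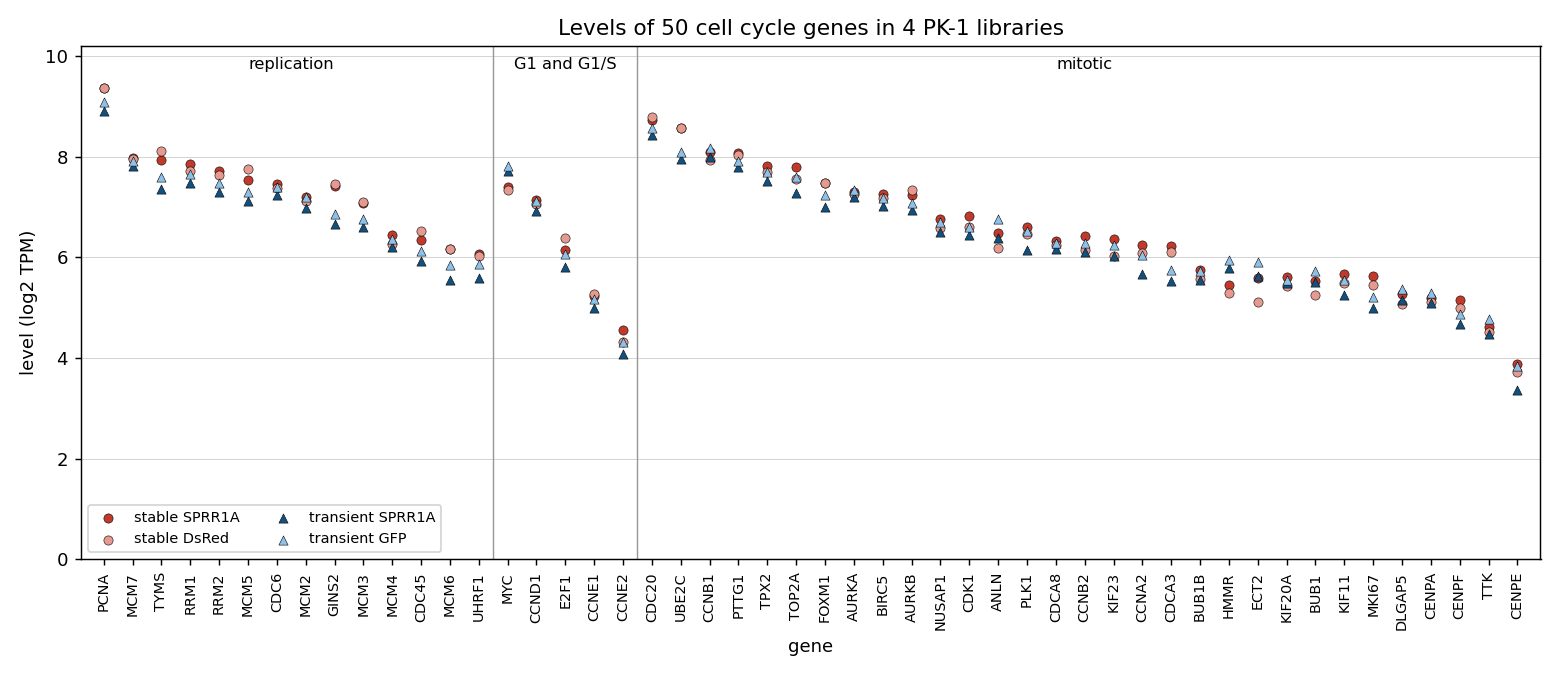
Level of each of the 50 genes (log2 TPM, vertical axis) in the 4 libraries, by role and then by mean level. Circles are stable and triangles transient cells, and each point is 1 library. Most genes have their 4 points within a narrow band. Both triangles lie below both circles for many genes, among them PCNA, TYMS, GINS2, MCM6, MCM3, MCM5 and CDC45, and the mitotic CDC20, UBE2C and MKI67. How many of all entities were separated in this way was not counted.

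Replication and mitotic genes are known for different promoter motifs, and promoters are shown because the results below are given by these 2 groups. Motifs of 3 kinds were searched on both strands of the RefSeq promoters of GRCh38.p14, which run from 250 bases before to 50 bases after each annotated start. They were the cell cycle homology region (CHR) TTTGAA, bound by the MuvB complex, the E2F site (TTTCCCGC, TTTCGCGC, TTTGCCGC or TTTGGCGC) and the CCAAT box, bound by NF-Y. None of them contains another. Promoters were searched for 39 of the 50 genes, and those of AURKA, BIRC5, CCND1, CCNE2, FOXM1, MCM4, MCM5, MYC, TPX2, TTK and UBE2C were not analysed here. The CHR was present in 20 of 29 starts of mitotic genes (69%), in 1 of 20 starts of replication genes (5%) and in 15.2% of all 35116 starts. The E2F site was present in 10 of 20 starts of replication genes (50%), in 4 of 29 starts of mitotic genes (13.8%) and in 3.31% of all starts. Both groups often held a CCAAT box, in 80% of replication and 86.2% of mitotic starts against 34.6% of all starts. A match is a description of the letters and not a measured binding site.

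The 120 bases before the start are given for 6 mitotic genes that hold a CHR, shown in capitals on whichever strand it was found. Of the 25 mitotic genes searched, 18 held a CHR. It was not found for AURKB, BUB1, CCNA2, CCNB1, CENPE, KIF20A and PTTG1, which are also named below. ECT2 (chr3:172750606-172750725) and ANLN (chr7:36389742-36389861) act in cytokinesis, HMMR (chr5:163460512-163460631) in spindle assembly, KIF23 (chr15:69414229-69414348) in the central spindle, PLK1 (chr16:23678769-23678888) in mitotic entry and CDC20 (chr1:43358861-43358980) in anaphase. All 6 lie on the forward strand.
ECT2: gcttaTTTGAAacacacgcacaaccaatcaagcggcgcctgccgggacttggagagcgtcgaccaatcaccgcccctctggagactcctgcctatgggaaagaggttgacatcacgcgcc
ANLN: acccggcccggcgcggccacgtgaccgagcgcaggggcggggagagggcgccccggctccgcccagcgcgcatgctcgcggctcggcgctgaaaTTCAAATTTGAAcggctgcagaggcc
HMMR: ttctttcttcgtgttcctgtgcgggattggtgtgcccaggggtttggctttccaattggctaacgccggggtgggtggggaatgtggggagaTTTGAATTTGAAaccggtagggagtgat
KIF23: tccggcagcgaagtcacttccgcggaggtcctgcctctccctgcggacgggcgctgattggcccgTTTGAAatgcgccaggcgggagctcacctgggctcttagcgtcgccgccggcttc
PLK1: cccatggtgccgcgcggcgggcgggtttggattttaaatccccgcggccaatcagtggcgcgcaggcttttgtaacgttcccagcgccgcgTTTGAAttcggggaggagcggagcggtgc
CDC20: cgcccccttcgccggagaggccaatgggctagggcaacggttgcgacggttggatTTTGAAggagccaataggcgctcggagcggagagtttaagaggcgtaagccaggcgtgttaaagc

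The same stretch is given for 3 replication genes and for E2F1, all of which hold the E2F site, shown in capitals. Of the 12 replication genes searched, 9 held the site, and CDC45, RRM1 and RRM2 did not. GINS2 (chr16:85688955-85689074) is a subunit of the replicative helicase complex, MCM6 (chr2:135876444-135876563) a subunit of the MCM helicase, PCNA (chr20:5126623-5126742) the clamp, and E2F1 (chr20:33686386-33686505) the transcription factor itself. All 4 lie on the reverse strand and are written 5′ to 3′ along the gene. MCM6 holds 2 overlapping matches, on opposite strands, and E2F1 holds 2 separate ones.
GINS2: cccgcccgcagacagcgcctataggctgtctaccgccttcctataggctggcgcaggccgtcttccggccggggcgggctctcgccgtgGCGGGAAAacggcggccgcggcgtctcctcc
MCM6: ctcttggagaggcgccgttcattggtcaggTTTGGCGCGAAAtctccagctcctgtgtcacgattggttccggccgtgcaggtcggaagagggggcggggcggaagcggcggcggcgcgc
PCNA: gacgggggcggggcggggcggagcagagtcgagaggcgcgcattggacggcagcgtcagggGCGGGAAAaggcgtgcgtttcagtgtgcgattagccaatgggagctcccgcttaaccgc
E2F1: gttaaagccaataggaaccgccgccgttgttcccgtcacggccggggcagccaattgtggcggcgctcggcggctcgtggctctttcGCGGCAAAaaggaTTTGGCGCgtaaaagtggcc

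In the stable model, none of the 50 genes differed by more than 2-fold between SPRR1A and DsRed cells, where 0.176% of the 10241 well expressed entities were higher and 0.117% lower. The log2 differences ranged from -0.25 for E2F1 to 0.49 for ECT2. By a finer rule of 1.2-fold, 5 genes were higher (10%) and 0 were lower, against 12.5% and 2.89% of all entities. All 5 were mitotic genes, namely ECT2, KIF23, ANLN, CCNB2 and BUB1. With the differences centred on the median of all entities, 2 were higher (ECT2 and KIF23) and 2 lower (E2F1 and MCM5). The shares of all entities past the limit after centring were not counted. The median was 0.16 over the mitotic genes, 0.015 over the replication genes and 0.05 over the G1 and G1/S genes, beside a median of 0.06 over all entities.

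Genes of cytokinesis had the 3 highest differences of the stable model. ECT2, the exchange factor that activates RhoA at the division plane, was at 5.60 log2 TPM in SPRR1A and 5.11 in DsRed cells, a log2 difference of 0.49. ANLN, the anillin scaffold of the contractile ring, was at 6.49 and 6.18, a log2 difference of 0.31. KIF23, a motor of the central spindle, was at 6.37 and 6.03, a log2 difference of 0.35. KIF20A, the remaining gene of this role, differed by 0.18, so all 4 were higher in the SPRR1A library. All 4 also lay above the median of all entities, 0.06, and the share of all entities that were higher was not counted. CCNB2, a B-type cyclin, differed by 0.28, and BUB1, a kinase of the spindle checkpoint, by 0.26. Its partners in the checkpoint, BUB1B and TTK, differed by 0.17 and 0.11. CDK1, the kinase that B-type cyclins activate, was at 6.82 and 6.60 (0.22), and TOP2A, which untangles sister chromatids, at 7.79 and 7.56 (0.22). The lowest values among the mitotic genes were those of AURKB (-0.10), CDC20 (-0.05), FOXM1 (-0.01), UBE2C (0.0034) and PTTG1 (0.03). MKI67, the source of the Ki-67 antigen by which pathologists count cycling cells, was at 5.63 in SPRR1A and 5.46 in DsRed cells, a log2 difference of 0.17.

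The replication genes lay closer to 0 in the stable model. The 6 subunits of the MCM helicase, which unwinds DNA at the fork, ranged from -0.21 for MCM5 to 0.17 for MCM4, with MCM2 at 0.08, MCM3 at -0.02, MCM6 at -0.01 and MCM7 at 0.02. PCNA was at 9.37 in SPRR1A and 9.36 in DsRed cells. TYMS, which makes thymidylate, was lower in SPRR1A cells by a log2 difference of -0.18, and CDC45, an activator of the helicase, by -0.17. RRM1, the large subunit of ribonucleotide reductase, was higher (0.15). E2F1 was at 6.14 in SPRR1A and 6.39 in DsRed cells, the lowest log2 difference of the 50 genes. The other regulators of this step differed by 0.09 (CCND1), -0.03 (CCNE1), 0.24 (CCNE2) and 0.05 (MYC).

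In the transient model, none of the 50 genes passed 2-fold either, where 0.0195% of all entities were higher and 0.146% lower. All 50 were lower in SPRR1A than in GFP cells, with log2 differences from -0.48 for CENPE to -0.06 for KIF20A. The share of all entities that were lower was not counted. The median over all 10241 entities was -0.18 in this model, and 22 of the 50 genes lay above it and 28 below. In its own transient library SPRR1A took 9.9% of all TPM, a share that by itself shifts each other gene by -0.15. The medians of the mitotic genes (-0.20), the replication genes (-0.19) and the G1 and G1/S genes (-0.22) lay beside this shift. By the 1.2-fold rule 0 genes were higher and 10 were lower (20%), against 0.615% and 23% of all entities. With the differences centred on the median of all entities, 1 gene, CENPE, was lower by more than 1.2-fold. The share of all entities was not counted for this setting.

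CENPE was at 3.36 log2 TPM in SPRR1A and 3.84 in GFP cells. ANLN was at 6.38 and 6.77 (-0.39), PLK1, the kinase of mitotic entry, at 6.15 and 6.52 (-0.37), CCNA2, the cyclin of S and G2 phase, at 5.68 and 6.04 (-0.36), and TOP2A at 7.28 and 7.60 (-0.32). Below the 1.2-fold limit lay also KIF11 (-0.30), the motor that separates spindle poles, TTK (-0.29) and ECT2 (-0.29). The replication genes past this limit were MCM6 (-0.30) and UHRF1 (-0.28), which brings the maintenance methyltransferase to new DNA. The genes with the smallest differences besides KIF20A were CDCA8 (-0.12), AURKA (-0.13), PTTG1 (-0.14) and UBE2C (-0.14). Among the others, MKI67 differed by -0.22, CCNB1 by -0.16, CDK1 by -0.17, CDC20 by -0.15, PCNA by -0.18, MCM2 by -0.21 and MCM5 by -0.18. The replication genes with the highest values were MCM7 (-0.10), MCM4 (-0.15) and MCM3 (-0.16). In the G1 group the differences were -0.22 for CCND1, -0.18 for CCNE1, -0.23 for CCNE2, -0.26 for E2F1 and -0.11 for MYC.

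**Figure D2:**
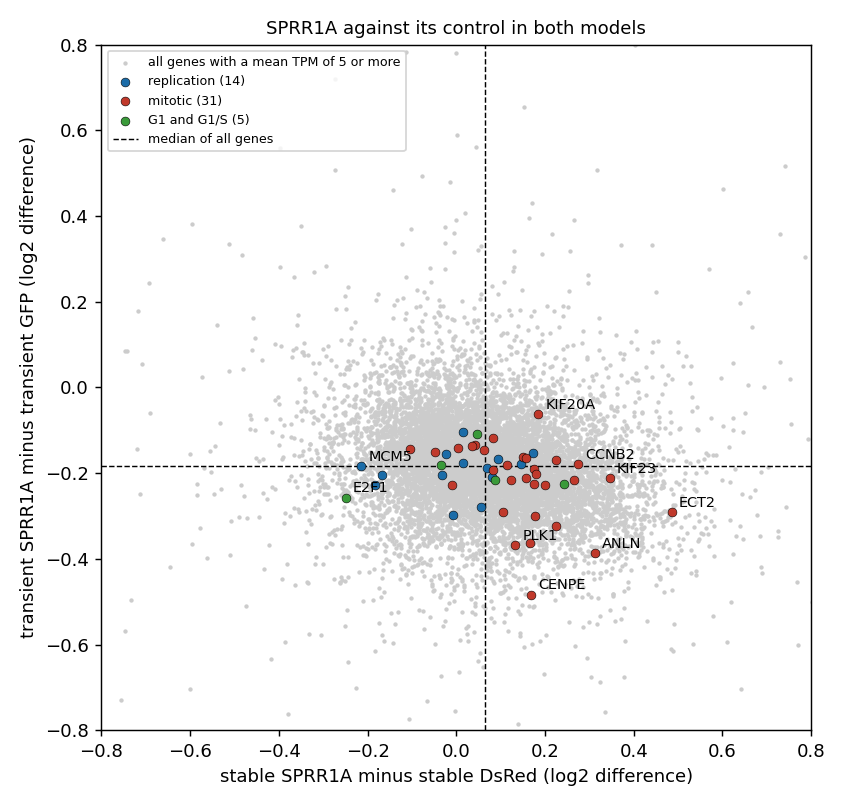
Log2 difference between SPRR1A and control in the stable model (horizontal) and the transient model (vertical) for the 50 genes by role, over all well expressed genes (grey, those beyond the axes not shown). Dashed lines are the medians of all genes, 0.06 and -0.18, and the 50 genes lie inside the grey cloud, with ECT2, ANLN and CENPE toward its lower right.

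The 2 models share no library, so their values can be set side by side. Of the 50 genes, 33 lay above the median of all entities in one model and below it in the other, against 58.7% of all entities. Among the mitotic genes these were 23 of 31, and among the replication genes 6 of 14. Across the 50 genes Pearson's r between the models was -0.26 and Spearman's rho was -0.30, and across all 10240 entities without SPRR1A they were -0.19 and -0.22. These are correlations across genes, which are not replicates and share each library's composition.

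Transcript base composition moved with these differences. The GC content of the canonical transcript (GENCODE 44) had a median of 43.1% over the mitotic genes, 48.7% over the replication genes and 48.8% over all entities that could be matched. Across the 50 genes, Pearson's r between GC content and the log2 difference was -0.68 for the stable pair and 0.30 for the transient pair. Across the other entities it was -0.41 and 0.12. Among the 50 genes, ECT2, with a GC content of 36.3%, was the highest of the stable model and E2F1, with 61.6%, the lowest. When each difference was taken relative to the median of entities with a like GC content (10 bins), an alternative chosen after seeing the data, the median of the mitotic genes in the stable model went from 0.16 to 0.021. The gap between the mitotic and the replication median went from 0.14 to 0.084. In this setting ECT2 was the only gene of the 50 above 1.2-fold in the stable model, at 0.28, and ANLN was at 0.15. The share of all entities was not counted here. Transcript length moved with the differences as well, with r = 0.34 for the stable and -0.41 for the transient pair for the log10 of length across the 50 genes, and its part in them was not tested.

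**Figure D3:**
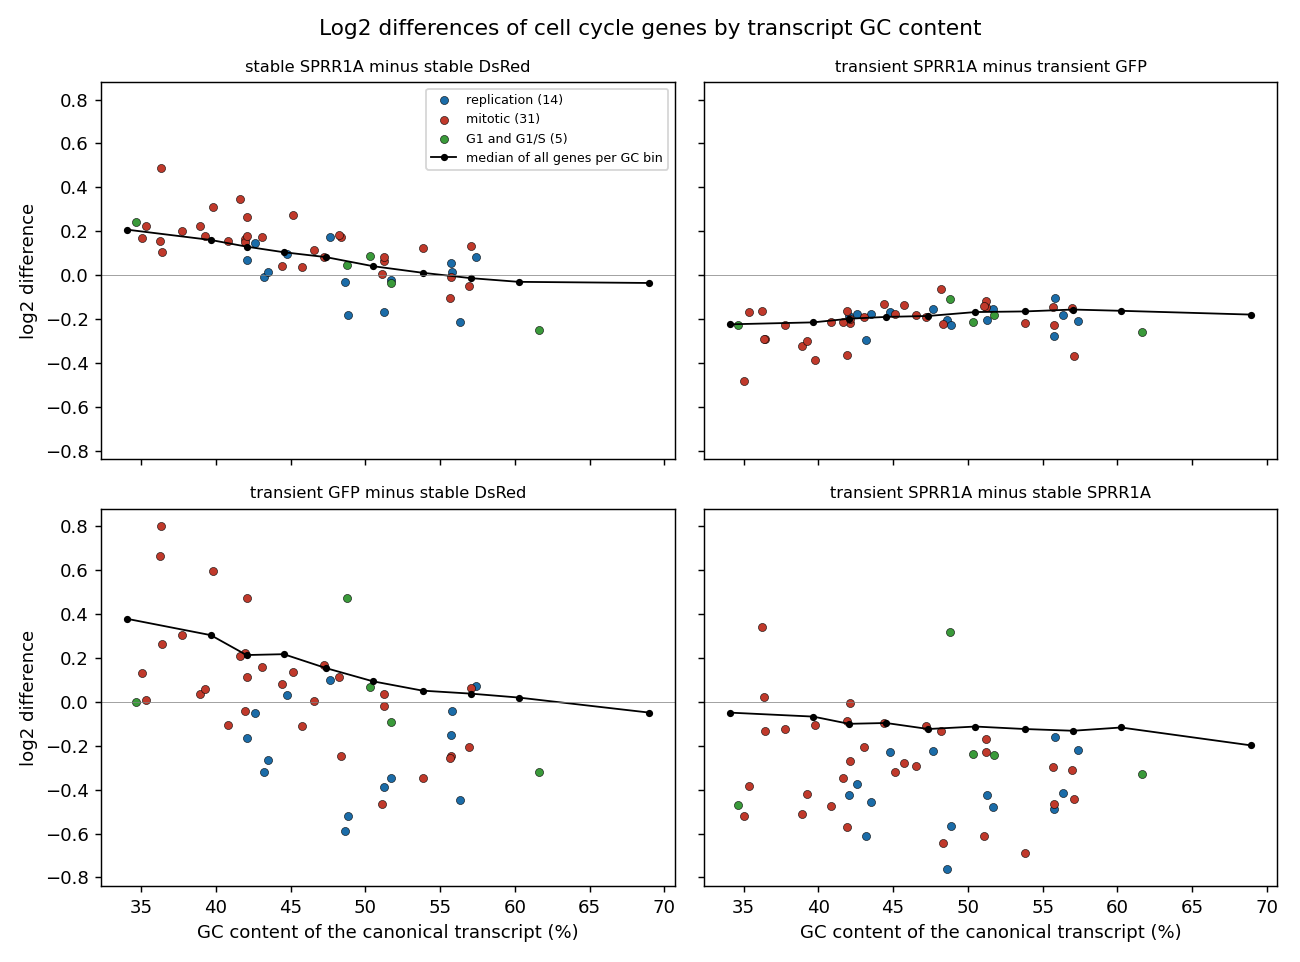
Log2 difference of the 50 genes (vertical) against the GC content of the canonical transcript in % (horizontal) in the 4 comparisons, with the median of all genes in 10 GC bins as a black line. In the stable model the points follow the line, which runs from 0.21 to -0.04, and in the panels of transient against stable cells the replication genes lie below it, except MCM2 between the controls.

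Transient cells were then compared with stable cells, once between the controls (GFP minus DsRed) and once between the SPRR1A libraries. These 2 comparisons share no library with each other, though each of them shares its libraries with the 2 models above. The vector, the transfection, the fluorescent protein and the culture history differ together between the models and cannot be told apart, and library batches are not given. None of the 50 genes passed 2-fold in either comparison. Between the controls 4.66% of all entities were more than 2-fold higher and 0.332% lower in transient cells, and between the SPRR1A libraries 1.63% and 0.41%. The median over all entities was 0.14 with the control vectors and -0.11 with SPRR1A.

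The replication genes were lower in transient cells, relative to all entities, in both comparisons. Their median was -0.22 with the control vectors and -0.42 with SPRR1A, and all 14 lay below the median of all entities in both, which 40.4% of all entities did. The epithelial markers were divided, and their median also lay low. Relative to the median of all entities, the median of 7 markers was -0.40 with the control vectors and -0.31 with SPRR1A. The replication genes stood at -0.36 and -0.31. These 7 markers had a mean TPM of at least 5. In each comparison 5 of them lay below the median of all entities and 2, CDH1 and CLDN4, above it. KRT7 was the lowest of these markers (-0.51 and -0.61) and CDH1 the highest (0.71 and 0.25), with CLDN4 at 0.21 and 0.04. Of the markers of other cell types, CD68 (0.90 and 0.82) and LYZ (0.45 and 0.36) were higher in transient cells. COL1A1, with a mean TPM of 4.80, differed by 0.66 and -0.13. The part of these marker differences in the result was not tested. GINS2 was at 6.66 and 6.87 log2 TPM in transient SPRR1A and GFP cells against 7.43 and 7.46 in stable SPRR1A and DsRed cells, so its log2 differences were -0.76 between the SPRR1A libraries and -0.59 between the controls. Its transient and stable values did not overlap, but how many of all entities were separated in this way was not counted. TYMS was at 7.37 and 7.59 in transient and at 7.93 and 8.11 in stable cells, with differences of -0.56 for SPRR1A and -0.52 for the controls. PCNA was at 8.91 and 9.09 in transient and at 9.37 and 9.36 in stable cells, with differences of -0.46 and -0.27 in the same order. Both genes therefore had each transient value below each stable value, again without a count over all entities.

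Within the MCM helicase the subunits did not differ alike. MCM6 was at 5.55 and 5.85 in transient SPRR1A and GFP cells and at 6.16 and 6.17 in stable SPRR1A and DsRed cells. MCM5 was at 7.12 and 7.31 and at 7.54 and 7.75, and MCM3 at 6.60 and 6.76 and at 7.08 and 7.10. The differences between the controls were -0.32, -0.45 and -0.35 for these 3 subunits, but 0.07 for MCM2, 0.10 for MCM4 and -0.04 for MCM7. Between the SPRR1A libraries they were -0.61, -0.42 and -0.48 for MCM6, MCM5 and MCM3, and -0.22, -0.22 and -0.16 for MCM2, MCM4 and MCM7. CDC6, which loads the helicase at origins, differed by 0.03 between the controls and by -0.23 between the SPRR1A libraries, and CDC45, which joins it at firing, by -0.39 and -0.42. UHRF1 differed by -0.15 and -0.49 in this order, RRM1 by -0.05 and -0.37, and RRM2, the small subunit of ribonucleotide reductase, by -0.17 and -0.42.

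By the 1.2-fold rule, 6 of the 50 genes were higher (12%) and 10 lower (20%) in transient GFP than in stable DsRed cells, against 37.8% and 12.4% of all entities. The 10 lower genes were 7 replication genes (MCM3, MCM5, MCM6, CDC45, GINS2, PCNA and TYMS) with E2F1, UBE2C and CDCA3. The 6 higher genes were ECT2, HMMR, ANLN, BUB1, MYC and DLGAP5, of which 4 stayed past the limit relative to entities of like GC content. There DLGAP5 went from 0.30 to -0.076 and BUB1 from 0.47 to 0.26, and the share of all entities past the limit was not counted. Between the SPRR1A libraries 2 genes, HMMR and MYC, were higher (4%) and 30 were lower (60%), against 14.5% and 29.1% of all entities. Taken relative to the median of all entities, 13 genes were more than 1.2-fold below it in both comparisons, where 12.3% of all entities were, and 2 were above it, where 16.9% were. The 13 were 9 of the 14 replication genes (MCM3, MCM5, MCM6, CDC45, GINS2, PCNA, UHRF1, RRM2 and TYMS) and 4 of the 31 mitotic genes (FOXM1, MKI67, UBE2C and CDCA3). The 2 were HMMR and MYC.

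**Figure D4:**
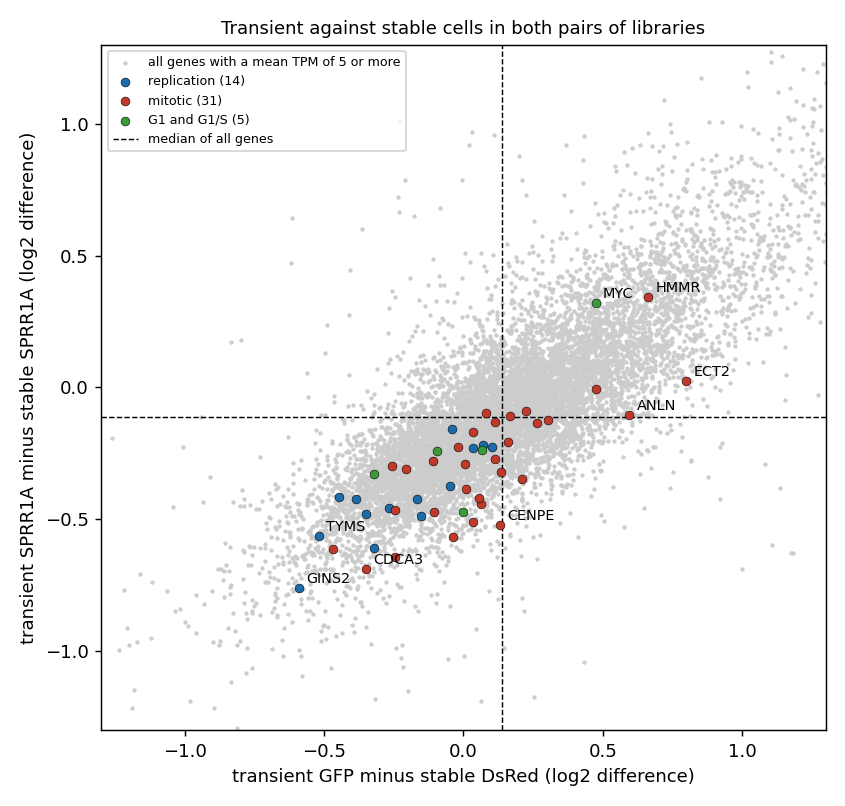
Log2 difference between transient and stable cells for the control libraries (horizontal) and the SPRR1A libraries (vertical), for the 50 genes by role over all well expressed genes (grey, those beyond the axes not shown). Dashed lines are the medians of all genes, 0.14 and -0.11, and all 14 replication genes lie below both of them, with HMMR and MYC above.

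The mitotic genes were more divided. Their median was 0.06 with the control vectors and -0.29 with SPRR1A, beside 0.14 and -0.11 over all entities. Of the 31 genes, 20 lay below the median of all entities in both, which 40.4% of all entities did. By the 1.2-fold rule 18 were lower between the SPRR1A libraries (58.1%), against 29.1% of all entities. Between the controls 2 were lower (6.45%), against 12.4%. The gap between the mitotic and the replication median, which no change of scale of a library can move, was 0.28 with the control vectors and 0.13 with SPRR1A. Relative to entities of like GC content it was 0.30 and 0.15. CDCA3, a trigger of mitotic entry, was at 5.53 and 5.75 log2 TPM in transient SPRR1A and GFP cells and at 6.22 and 6.10 in stable SPRR1A and DsRed cells, with differences of -0.69 between the SPRR1A libraries and -0.35 between the controls. UBE2C, the ubiquitin-conjugating enzyme of the anaphase-promoting complex, was at 7.95 and 8.10 in transient and at 8.57 and 8.56 in stable cells. MKI67 was at 4.99 and 5.21 in transient and at 5.63 and 5.46 in stable cells, with differences of -0.64 for SPRR1A and -0.24 for the controls. For these 3 genes no transient value reached a stable one, and the share of all entities separated in this way was not counted.

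Some genes of the spindle, its checkpoint and cytokinesis were higher in transient cells in at least 1 of the comparisons. By the 1.2-fold rule 5 of the 31 mitotic genes were higher between the controls (16.1%), against 37.8% of all entities. Between the SPRR1A libraries 1 was higher (3.23%), against 14.5%. HMMR, a microtubule-binding protein of the spindle pole, was at 5.79 and 5.95 in transient and at 5.45 and 5.29 in stable cells. Its differences were 0.34 for SPRR1A and 0.66 for the controls. Both transient values lay above both stable ones, and the share of all entities for which this held was not counted. ECT2 was at 5.62 and 5.91 in transient and at 5.60 and 5.11 in stable cells, so it differed by 0.80 between the controls and by 0.02 between the SPRR1A libraries. In this order ANLN differed by 0.60 and -0.10, and BUB1 by 0.47 and -0.0064, with the same split. These 3 genes were low in stable DsRed cells, the library that the comparison of the controls and the stable model have in common. Among the cyclins and their kinase, CCNB1 differed by 0.22 with the control vectors and -0.09 with SPRR1A, CCNA2 by -0.04 and -0.57, and CDK1 by 0.0089 and -0.38. In the same order CENPE differed by 0.13 and -0.52, TOP2A by 0.04 and -0.51, FOXM1 by -0.25 and -0.46, AURKB by -0.26 and -0.30, and CDC20 by -0.21 and -0.31. Across the 50 genes the 2 comparisons of transient with stable cells had a Pearson's r of 0.80 and a Spearman's rho of 0.76, and across all other entities 0.81 and 0.80.

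Further mitotic members had these values. NUSAP1, a microtubule-bundling protein, differed by 0.11 with the control vectors and -0.27 with SPRR1A, and by 0.18 and -0.20 between SPRR1A and control in stable and transient cells. CENPA, the histone of the centromere, differed by 0.17, -0.11, 0.08 and -0.19 in this order, and CENPF, a protein of the outer kinetochore, by -0.10, -0.47, 0.16 and -0.21. BIRC5, which encodes survivin of the chromosomal passenger complex, differed by -0.02, -0.23, 0.06 and -0.15, and its partner CDCA8 (borealin) by 0.03, -0.17, 0.08 and -0.12. Against its own control, each of these genes had a higher level with stable and a lower one with transient SPRR1A. The same held for TPX2, an activator of the kinase Aurora A, at 0.11 and -0.18. However, the medians over all entities were 0.06 and -0.18, and all 50 genes were lower with transient SPRR1A. Relative to these medians NUSAP1 (0.12 and -0.02), CENPA (0.02 and -0.01) and CENPF (0.09 and -0.03) kept opposite signs. CDCA8 (0.02 and 0.07) and TPX2 (0.05 and 0.0022) lay above both medians. BIRC5 (-0.0022 and 0.04) lay below the first and above the second.

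Among the regulators of G1 phase, MYC, a transcription factor of growth genes, was at 7.71 and 7.82 in transient SPRR1A and GFP cells and at 7.39 and 7.34 in stable SPRR1A and DsRed cells. Its differences were 0.32 between the SPRR1A libraries and 0.48 between the controls. Its transient values lay above its stable ones, without a count of how many of all entities did so. E2F1 was at 5.82 and 6.07 in transient and at 6.14 and 6.39 in stable cells, with differences of -0.33 and -0.32 in the same order. CCND1, the D-type cyclin, differed by -0.24 between the SPRR1A libraries and 0.07 between the controls, CCNE1 by -0.24 and -0.09, and CCNE2 by -0.47 and -0.0017.

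Further genes of the same pathways were taken from fixed lists. Of 46 other replication genes, 0 passed 2-fold in any of the 4 comparisons. Their median difference was 0.09 for stable and -0.18 for transient SPRR1A cells against their controls. For transient against stable cells it was -0.11 with the control vectors and -0.35 with SPRR1A. By the 1.2-fold rule 3 were higher (6.52%) and 11 lower (23.9%) between the controls, against 37.8% and 12.4% of all entities. Between the SPRR1A libraries 0 were higher and 31 lower (67.4%), against 14.5% and 29.1%. The lowest were UNG, which removes uracil from DNA, at -0.56 between the controls, and DUT, which removes dUTP, at -0.81 between the SPRR1A libraries. The highest were GINS4 (0.38) and RPA3 (-0.0013). In the models the range ran from LIG1 (-0.09) to RFC3 (0.42) for stable and from GINS4 (-0.34) to POLE2 (0.27) for transient cells.

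Of 50 other mitotic genes, 49 had a mean TPM of at least 5, with a median difference of 0.13 for stable and -0.20 for transient SPRR1A cells against their controls. For transient against stable cells it was 0.12 with the control vectors and -0.24 with SPRR1A. Of these 49, KNL1, the kinetochore scaffold, passed 2-fold between the controls, and none did in the other comparisons. The remaining gene, GAS2L3, had a mean TPM of 3.93 and differed by 1.44 between the controls, from 1.02 log2 TPM in stable DsRed to 2.46 in transient GFP cells. KNL1 was at 2.46 log2 TPM in stable DsRed cells, against 3.22 in stable SPRR1A cells and 3.38 and 3.83 in transient SPRR1A and GFP cells. Its log2 differences were 1.37 and 0.15 for transient against stable cells, controls first, and 0.77 and -0.45 for SPRR1A against control, stable model first, so it shares the low stable DsRed value of ECT2. By the 1.2-fold rule 8 of the 49 were higher (16.3%) and 0 lower in the stable pair, against 12.5% and 2.89% of all entities. The transient pair had 8 lower (16.3%) and 0 higher, against 23% and 0.615%. Between the controls 13 were higher (26.5%) and 3 lower (6.12%), against 37.8% and 12.4% of all entities, so the share of higher genes was below that of all entities. Between the SPRR1A libraries 0 were higher and 22 lower (44.9%), against 14.5% and 29.1%. The lowest and highest in the models were TACC3 (-0.14) and KNL1 for stable and KIF14 (-0.54) and SKA1 (-0.01) for transient cells. The lowest were CDC25B (-0.38) between the controls and SKA3 (-0.64) between the SPRR1A libraries.

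CDKN1A, which encodes the inhibitor of cyclin-dependent kinases p21, was at 5.96 and 6.15 log2 TPM in transient SPRR1A and GFP cells and at 4.93 and 4.75 in stable SPRR1A and DsRed cells. It was more than 2-fold higher in transient cells in both comparisons, with log2 differences of 1.04 between the SPRR1A libraries and 1.41 between the controls. Its difference between SPRR1A and control was 0.18 for stable and -0.19 for transient cells. CDKN1B, which encodes p27, differed by 0.11 between the SPRR1A libraries and 0.44 between the controls, while SPRR1A against control gave 0.17 for stable and -0.16 for transient cells. CDKN2A, CDKN2B and CDKN1C were listed at 0 in all 4 libraries, which leaves 5 of 8 inhibitors with a mean TPM of at least 5. CDKN2C differed by -0.26 with the control vectors and -0.41 with SPRR1A, and CDKN2D had the highest value among the 5 inhibitors in the stable model (0.55).

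CDKN1A also stands in a list of 23 p53 target genes, of which 18 had a mean TPM of at least 5. Between the controls 5 of the 18 were more than 2-fold higher in transient cells and 0 lower, where 4.66% of all entities were higher and 0.332% lower. Between the SPRR1A libraries 5 were higher and 0 lower, against 1.63% and 0.41%. They were CDKN1A, GADD45A, a stress-induced partner of PCNA, SESN2, BBC3, which encodes the death factor PUMA, and POLH in both comparisons. GADD45A was at 7.86 and 8.07 log2 TPM in transient SPRR1A and GFP cells and at 6.63 and 6.70 in stable SPRR1A and DsRed cells, with differences of 1.23 for SPRR1A and 1.37 for the controls. SESN2, a stress-induced inhibitor of mTORC1 signalling, was at 5.10 and 5.22 in transient and at 3.90 and 3.94 in stable cells. In the same order BBC3 differed by 1.35 and 1.53 and POLH by 1.13 and 1.17. Other members of the list stayed within 2-fold, with MDM2 at 0.30 and 0.64, BAX at -0.23 and -0.19, TP53I3 at -0.16 and -0.07 and FDXR at -0.45 and -0.49. By the 1.2-fold rule 8 of the 18 were higher (44.4%) and 1 lower (5.56%) between the SPRR1A libraries, against 14.5% and 29.1% of all entities. Between the controls 13 were higher (72.2%) and 1 lower (5.56%), against 37.8% and 12.4%. The medians of the 18 genes were 0.21 between the SPRR1A libraries and 0.55 between the controls. In the stable model the median was 0.04, from -0.19 for PHLDA3 to 0.43 for RRM2B, and in the transient model it was -0.15, from -0.41 for FAS to 0.06 for POLH, and 0 genes passed 2-fold in either.

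**Figure D5:**
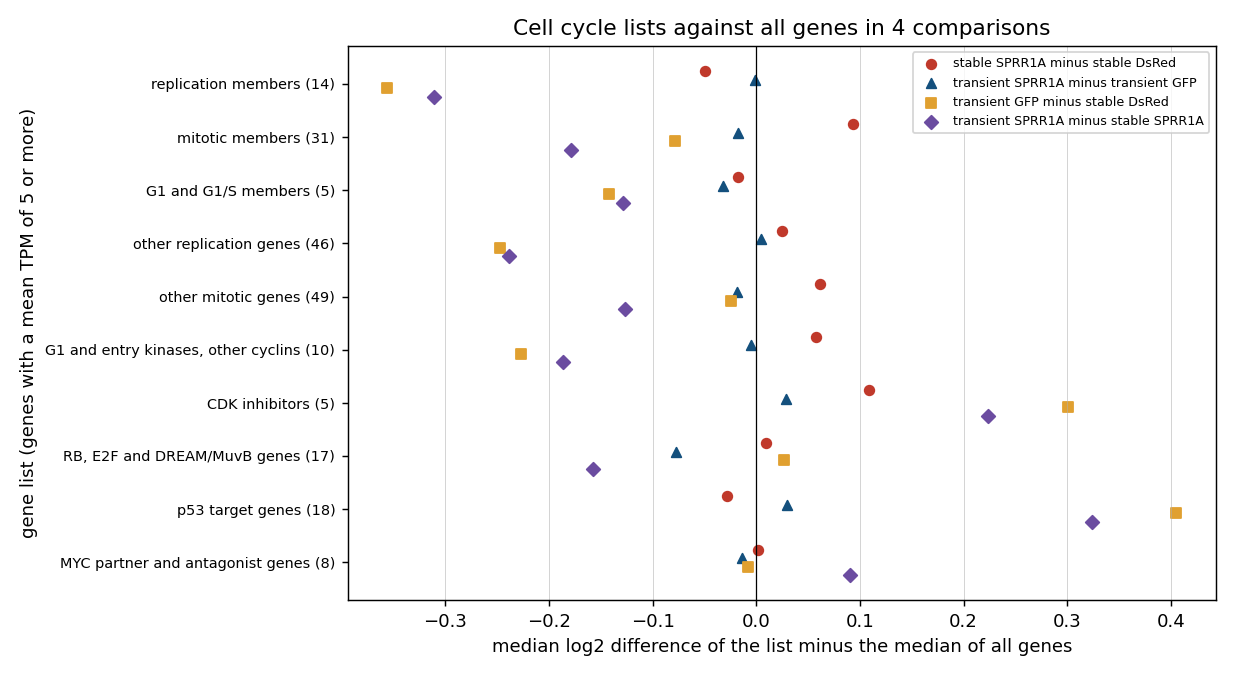
Median log2 difference of each gene list minus the median of all well expressed genes (horizontal) in the 4 comparisons, with the number of genes in brackets. The lists lie near 0 within the models, while in the comparisons of transient with stable cells the replication genes lie at -0.36 and -0.31 and the p53 target genes at 0.40 and 0.32.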

How the data were processed

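Bulk mRNA was sequenced from PK-1 cells in 4 libraries. The authors used Strand NGS at default parameters to align paired-end reads of TruSeq stranded mRNA libraries to the hg38 transcriptome and deposited log2 TPM values per gene, in which 0 stands for 1 TPM or below. Which software version and gene annotation were used, and how multiply matching reads were assigned, is not given in the sources used here.

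Log2 differences were taken for 4 comparisons, and a gene was called when it passed 2-fold, the study's rule, or 1.2-fold (0.263 on the log2 scale). The background was the 10241 entities with a mean TPM of at least 5 over the 4 libraries, where a value of 0 counts as a TPM of 1. The members and the lists were chosen with earlier results of these data known. The genes named are those of a rule that takes the 5 highest and 5 lowest mitotic and the 3 highest and 3 lowest replication genes per comparison, the extremes of the other lists and a fixed set of common markers. Any member may be given by its levels. MDM2, BAX, TP53I3, FDXR, CDKN2C, CDKN2D, MGA, MXD3, GAS2L3, KRT7, CDH1, CD68 and LYZ fall outside the rule in some or all of the comparisons they are given for, and were added with their values known. The same holds for CLDN4 and COL1A1.

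Since the number of reads is unknown, no counting interval is given. Alternatives were log2(TPM + 1), log2(TPM + 0.1), centring on the median difference, TPM rescaled without SPRR1A, and a mean TPM of at least 20. Centring within 10 bins of GC content was added after seeing the data, with GENCODE 44 canonical transcripts matched to 9732 of the 10241 entities by symbol. Positions came from RefSeq GRCh38.p14, matched by Entrez Gene identifier for all 50 genes. The calculations were tested on simulated data. The tools were matplotlib 3.10.9, pandas 2.3.3, numpy 2.4.6 and scipy 1.17.1 under Python 3.11.15.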

Additional observations from a re-analysis of the deposited data

Results flagged for a closer look

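Before centring on the median of all entities, ANLN and ECT2 lay past the 1.2-fold limit in opposite directions in the 2 models. The log2 difference of ANLN between SPRR1A and control was 0.31 for stable and -0.39 for transient cells, and that of ECT2 was 0.49 and -0.29. With 1 library per condition, this contrast of the models was not tested. Relative to the median of all entities, ANLN was at 0.25 and -0.20 and ECT2 at 0.42 and -0.11. Neither of them then passed the limit in both models. The share of all entities past it in opposite directions was not counted. Relative to entities of like GC content the values were 0.15 and -0.17 for ANLN and 0.28 and -0.07 for ECT2. ANLN overlaps MATCAP2 on the RefSeq map.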

How the results depend on the processing

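No paired analysis was possible because there was a single library for every condition, and no library could be left out. Of the 28 summary values of the list, 28 moved by less than 0.1 on the log2 scale, or stayed within 1.5 times as counts, under log2(TPM + 1), under log2(TPM + 0.1) and with a mean TPM of at least 20, which left out CENPE. Centring on the median difference changed 10 of them. The genes past 1.2-fold became 2 higher and 2 lower in the stable model, 1 lower in the transient model and 16 lower between the controls. The medians of the replication and mitotic genes became -0.0017 and -0.018 in the transient model, -0.36 and -0.079 between the controls, and -0.31 and -0.18 between the SPRR1A libraries. With TPM rescaled without SPRR1A, 5 changed: 1 gene was lower in the transient model, the medians there became -0.035 and -0.051, and those between the SPRR1A libraries -0.28 and -0.14. Centring within GC bins changed 10. It left 1 higher gene in the stable model, 0 lower in the transient model and 20 lower between the controls. The mitotic median of the stable model became 0.021, and the replication and mitotic medians became -0.0034 and -0.0026 in the transient model, -0.41 and -0.12 between the controls and -0.32 and -0.17 between the SPRR1A libraries. DLGAP5 between the controls went from 0.30 to -0.076. Centring on the median and rescaling without SPRR1A move all other genes of a comparison alike by construction. The shares of all entities past 1.2-fold were not counted under the centred and rescaled settings, so these gene counts have no background. The gap between the mitotic and the replication median kept its sign under each alternative, except in the transient model, where it went from -0.016 to just above 0 within GC bins.

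Of the 50 genes, 12 overlap a protein-coding neighbour on the RefSeq map, and whether the counting used strand is not given. They include GINS2 (with GSE1), TYMS (ENOSF1), UHRF1 (ARRDC5) and CDCA3 (GNB3). The part of such neighbours in the differences was not tested. All 17 pseudogenes named after a member were listed at 0 in all 4 libraries.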

Other observations

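Further lists of the pathway were measured. Of 18 RB, E2F and DREAM/MuvB genes, 17 had a mean TPM of at least 5 and 0 passed 2-fold in any comparison, with a median difference of 0.07 for stable and -0.26 for transient SPRR1A cells against their controls. For transient against stable cells the median was 0.17 with the control vectors and -0.27 with SPRR1A. MYBL2, the B-MYB partner of MuvB, was the lowest in transient against stable cells, at 5.73 and 5.87 log2 TPM in transient SPRR1A and GFP cells and at 6.69 and 6.75 in stable SPRR1A and DsRed cells, so that its log2 differences were -0.96 and -0.88. LIN37 was the highest between the SPRR1A libraries (0.81) and E2F7 between the controls (0.63). In the models the ranges ran from LIN37 (-0.19) to RB1 (0.49) for stable and from LIN52 (-0.64) to LIN37 (0.00037) for transient cells.

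Of the 10 other G1 cyclins and kinases, 0 passed 2-fold, with medians of 0.12, -0.19, -0.09 and -0.30 in the same order of comparisons. For transient against stable cells CDK7 was the highest with the control vectors (0.55) and with SPRR1A (0.33), and PKMYT1 (-0.34) and SKP2 (-0.69) were the lowest. In the stable model they ran from PKMYT1 (-0.14) to CCND2 (0.30), and in the transient model from CDK6 (-0.32) to PKMYT1 (-0.10).

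Among 8 partners and antagonists of MYC, MXD1, which competes with MYC for MAX, was at 4.99 and 5.15 log2 TPM in transient SPRR1A and GFP cells and at 2.90 and 2.61 in stable SPRR1A and DsRed cells. Its log2 differences were 2.09 between the SPRR1A libraries and 2.54 between the controls, and the others stayed within 2-fold. The medians of the 8 genes were 0.07, -0.20, 0.13 and -0.02 in the same order. MGA was the lowest between the SPRR1A libraries (-0.61) and MXD3 between the controls (-0.21), while in the models the ranges ran from MXD4 (-0.07) to MXD1 (0.29) and from MNT (-0.32) to MXI1 (0.13).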
